A study of Mus musculus with 4 samples.

Results

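The complement genes described here, in cultured mouse macrophages, were C1qa, C1qb, C1qc, C3, C4b, Cfb, Cfp, C3ar1 and C5ar1. These 9 genes were chosen by symbol from the 34745 Ensembl gene IDs of the deposited table, with earlier results of these data known. Each symbol matched 1 row, and all 9 passed the filter on low counts. The cells were primary bone marrow-derived macrophages of C57BL/6 mice, and every library came from cells that had been transfected with a small interfering RNA (siRNA) and given lipopolysaccharide (LPS), a bacterial cell wall component. The siRNA was control siRNA in 2 libraries and Acly-E14 siRNA in 2, and no library without siRNA or without LPS was analysed here. Acly encodes ATP citrate lyase, an enzyme that makes cytosolic acetyl-CoA. Neither the LPS dose and time nor the number of mice is in the labels, and they do not say whether replicate libraries came from different cultures, so the p-values reflect the spread among these libraries only, and that spread may be technical.

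Complement is a cascade of secreted proteins that tags microbes and dying cells for uptake, recruits leukocytes and can lyse membranes. C1q, built from the chains encoded by C1qa, C1qb and C1qc, starts the classical pathway by recognising antibody or altered surfaces. C4 and C2 then form an enzyme that cleaves C3, the protein on which all pathways converge. In the alternative pathway, factor B (Cfb) forms the C3-cleaving enzyme and properdin (Cfp) stabilises it. The fragments C3a and C5a signal through the receptors encoded by C3ar1 and C5ar1. The liver supplies most circulating complement, while myeloid cells, macrophages among them, make much of the C1q and properdin.

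The RefSeq promoter table (GRCm38.p6) matched 6 of the 9 genes, namely C1qb, C1qc, C3, Cfp, C3ar1 and C5ar1. The 250 bases before the start are shown for C1qb and C3, a pair that moved in opposite directions in these libraries. Capitals mark matches on either strand to 6 letter patterns: GAGGAAG (ETS/PU.1-type), GAAA, any 2 bases and GAAA again (IRF-type), TTCNNNGAA (GAS-type), GGGA, any 4 bases and CC (NF-kB-type), TTGCNNAA (C/EBP-type) and TGCTGAC (MAF half-site). Both sequences run 5′ to 3′ toward the start of the gene.
C1qb (chr4:136886201-136886450, minus strand): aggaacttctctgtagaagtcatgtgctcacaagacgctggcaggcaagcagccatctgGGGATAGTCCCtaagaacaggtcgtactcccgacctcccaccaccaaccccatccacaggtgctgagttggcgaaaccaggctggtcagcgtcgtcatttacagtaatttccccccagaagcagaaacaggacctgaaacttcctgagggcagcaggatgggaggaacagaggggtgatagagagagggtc
C3 (chr17:57228137-57228386, minus strand): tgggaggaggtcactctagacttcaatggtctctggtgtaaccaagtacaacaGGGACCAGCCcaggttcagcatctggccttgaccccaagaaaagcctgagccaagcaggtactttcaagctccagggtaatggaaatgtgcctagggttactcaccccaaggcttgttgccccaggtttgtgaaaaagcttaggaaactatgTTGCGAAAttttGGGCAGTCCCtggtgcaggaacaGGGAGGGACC
The C3 window held 3 NF-kB-type matches and 1 C/EBP-type match. In the C1qb window, 1 stretch matched the NF-kB-type pattern on both strands, as overlapping matches. The C1qc window held 1 ETS/PU.1-type and 1 NF-kB-type match. Its last 151 bases, with the NF-kB-type match, lie in a C1qc exon of GENCODE M21, which starts the gene farther upstream than RefSeq does. The windows of C3ar1 and C5ar1 hold 4 and 28 bases of those genes' own GENCODE exons. GENCODE starts C5ar1 at 16259540, within its window of 16259339 to 16259588, so most of that window lies inside the annotated gene. None of the patterns was found in the Cfp, C3ar1 and C5ar1 windows. Of 32851 promoter windows of the same length, 17.6% held the NF-kB-type, 10.6% the ETS/PU.1-type and 9.56% the C/EBP-type pattern. The IRF-type, GAS-type and MAF patterns, found in none of the 6 windows, occurred in 2.98%, 7.02% and 3.81%. A match describes letters only and marks no bound site.

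The libraries held 21023197 to 21837806 counts. The deposited counts were compared with edgeR's quasi-likelihood test, and genes were called below an adjusted p of 0.05 (Benjamini-Hochberg, 13108 genes tested). The targeted gene was lower in the libraries labelled Acly-E14 siRNA. Levels are given in CPM, the count relative to the library total, scaled with trimmed-mean factors (TMM). Acly was at 158 and 154 CPM in controls and at 118 and 127 CPM in the others. These are whole-gene values, which cannot separate transcripts. The log2 change of Acly was -0.35 (SE 0.0597, edgeR adjusted p = 0.0086), and it was not called when control library 1 was omitted (0.0583). Of all genes tested, 17.3% were called higher and 15.9% lower, 33.2% in all. The 3 best counted macrophage markers were Lyz2 at 4399 to 4932 CPM, Cd68 at 1158 to 2028 CPM and Cd14 at 806 to 1732 CPM. Near the floor in the same list were Aif1, at 2.78 to 3.80 CPM, and Cx3cr1, with 0 to 2 counts. Fibroblast and stroma markers were present too, most strongly Col1a2, Col1a1 and Dcn.

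Of the 9 complement genes, 5 fell, 2 rose and 2 were not called, so 7 were called against 33.2% of all genes. Members are well counted, and among the 7796 genes with a mean of at least 10 CPM the share called was 41.1% (17.4% higher and 23.7% lower). The median log2 change of the 9 was -0.32, against 0.0027 for all genes tested. The C1q chains, properdin and the C3a receptor were lower in Acly-E14 siRNA libraries, while C3 and C4b were higher. Factor B and the C5a receptor were not called. For 8 of 9 genes both libraries of a group lay beyond both of the other, which was so for 70.6% of all genes tested (35.3% higher and 35.3% lower). Of the 9, 3 lay higher in this sense and 5 lower.

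**Figure D1:**
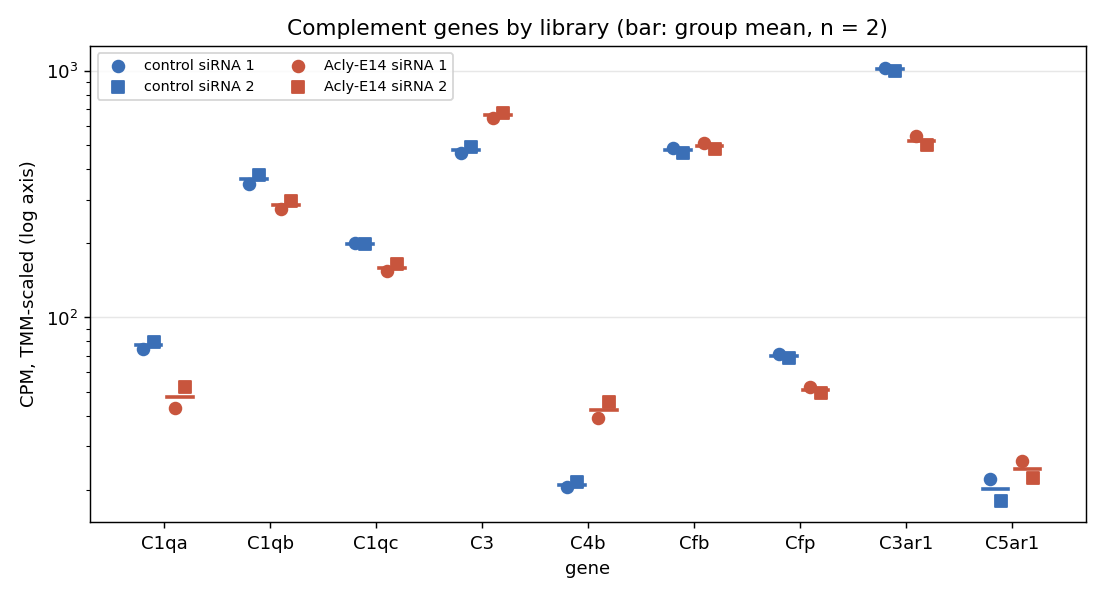
TMM-scaled CPM (log axis) of each complement gene in the 2 control siRNA (blue) and 2 Acly-E14 siRNA libraries (red), with bars at the group means. The groups overlap for Cfb alone, C3 and C4b lie higher in red, and C3ar1 drops from about 1015 to 521 CPM.

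The 3 C1q genes lie side by side on the minus strand of chromosome 4, with 3 merged exons each. C1qb spans 136880129 to 136886187, C1qc 136889804 to 136893065 and C1qa 136895917 to 136898803 (GENCODE M21 on mm10, the build in the submitters' notes). C1qa had 74.8 and 79.9 CPM in controls and 43.0 and 52.2 CPM in Acly-E14 siRNA libraries. Both treated libraries were below both controls, and C1qa fell by 0.70 (log2) to 0.616 of the control level (SE 0.104, edgeR adjusted p = 0.0058). C1qb had 348 and 379 CPM in controls and 275 and 296 CPM in Acly-E14 siRNA libraries. C1qb fell by 0.35 (SE 0.0677, edgeR adjusted p = 0.013), again with no overlap. This call was lost without control library 2 (0.0678) or Acly-E14 siRNA library 1 (0.0592) and with limma on log2(FPKM + 1) (0.0563). C1qc had 200.2 and 198 CPM against 154 and 164 CPM, and fell by 0.32 (SE 0.0566, edgeR adjusted p = 0.0096). Its call was lost without control library 1 (0.0626).

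All 3 chains are needed in equal numbers for the C1q protein, but their transcripts were not at equal levels per length. FPKM divides counts by gene length and library total, here with the length implied by the deposited FPKM. C1qb was at 323 ± 24.2 FPKM (SD, n = 2) in controls, C1qc at 89.7 ± 0.676 and C1qa at 72.0 ± 4.50. The C1qb level per length was 4.45 and 4.53 times that of C1qa in the controls and 6.12 and 5.43 times in the Acly-E14 siRNA libraries. C1qc over C1qa was 1.30 and 1.20 in the control group against 1.74 and 1.52 after Acly-E14 siRNA. The C1qa share of the C1q transcripts was thus lower in both Acly-E14 siRNA libraries. The ratio of C1qb to C1qc overlapped between the groups, at 3.43 and 3.78 against 3.52 and 3.57. With 2 libraries per group the smallest two-sided exact permutation p for such a ratio is 0.333.

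C3 spans 57203970 to 57228136 on the minus strand of chromosome 17, with 42 merged exons. Its levels were 463 and 491 CPM in controls and 643 and 677 CPM in Acly-E14 siRNA libraries. C3 rose 1.39-fold (log2 0.47, SE 0.0595, edgeR adjusted p = 0.0037), and the groups did not overlap. C4b, the gene for complement C4 (chromosome 17, 34728380 to 34743882, minus strand, 40 merged exons), had 20.5 and 21.5 CPM in controls and 39.0 and 45.4 CPM in the others. It rose 2.01-fold (log2 1.01, SE 0.103, edgeR adjusted p = 0.0022), the largest rise of the 9. Its near-identical neighbour C4a had 12 to 29 counts per library against 412 to 994 for C4b, and reads shared between the copies could have been split. C4a had a log2 difference of 0.07 and was not called (edgeR adjusted p = 0.93). C3 exceeded C4b per length 25.1 and 25.3 times in controls and 18.3 and 16.5 times in the Acly-E14 siRNA libraries.

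Fibroblast and stroma markers separated the same libraries. Of 14 such genes tested, 13 were called higher and 0 lower, against 17.3% and 15.9% of all genes tested. The median log2 change of these markers was 1.50. Their summed level was 908 and 1351 CPM in controls and 3021 and 3794 CPM in Acly-E14 siRNA libraries. Library 2 exceeded library 1 within both groups in this sum, in the rising C3 and C4b and in the falling C1qa and C1qb. The reverse order held within both groups for Cfb, Cfp, C3ar1 and C5ar1, and C1qc was mixed. The share of all genes with either order in both groups was not counted, so a shared order ties no gene to stroma. Col1a2 went from 320 and 475 CPM to 1036 and 1248 CPM. Of 14 hepatocyte markers, 13 did not pass the filter on low counts, and the whole list had 1 and 3 counts in the control libraries against 107 and 105, with Alb at 53 and 60 counts in the latter. At these sums hepatocyte markers reached 4.90 and 4.80 CPM, which does not show how much C3 or C4b RNA came from such cells. The part of either cell type in the C3 and C4b differences was not tested. In bulk RNA, a change in the number of cells of a type and a change in RNA per cell cannot be told apart.

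In the alternative pathway, properdin and factor B differed in behaviour. Cfp (chromosome X, 20925454 to 20931555, minus strand, 9 merged exons) had 71.4 and 68.3 CPM in controls and 52.2 and 49.4 CPM in Acly-E14 siRNA libraries. The groups did not overlap, and Cfp fell by 0.46 (log2), to 0.727 of the control level (SE 0.0664, edgeR adjusted p = 0.0053). Cfb (chromosome 17, 34856374 to 34862518, minus strand, 17 merged exons) had 486 and 466 CPM in controls and 510 and 482 CPM in the others. The groups overlapped and Cfb was not called (log2 0.06, 95% interval -0.08 to 0.20, edgeR adjusted p = 0.48). Cfb shares 2246 exon bases with Gm20547, a gene on the same strand that also shares 1656 exon bases with C2. Gm20547 had 553 to 972 counts against 9794 to 11144 for Cfb, and with its counts added Cfb had a log2 difference of 0.06 (edgeR adjusted p = 0.378).

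The receptor genes did not move alike. C3ar1 (chromosome 6, 122847138 to 122856161, minus strand, 2 merged exons) was the best counted member in controls, at 1031 and 999 CPM, and was at 543 and 499 CPM in Acly-E14 siRNA libraries. C3ar1 fell by 0.96 (log2), to 0.513 of the control level (SE 0.0633, edgeR adjusted p = 0.00085). This was the largest fall of the 9. C5ar1 (chromosome 7, 16246743 to 16259540, minus strand, 3 merged exons) had 22.1 and 18.1 CPM in controls and 26.1 and 22.3 CPM in the others. The Acly-E14 siRNA libraries lay above the controls by a small margin, and C5ar1 was not called (log2 0.27, 95% interval -0.06 to 0.60, edgeR adjusted p = 0.178). The level of C3ar1 over C5ar1 per length was 54.4 and 64.3 in the control group against 24.3 and 26.1 after Acly-E14 siRNA. With merged exon lengths these ratios were 27.8 and 32.9 against 12.4 and 13.3. C5ar2, a second C5a receptor, had 4 to 14 counts and was not tested.

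**Figure D2:**
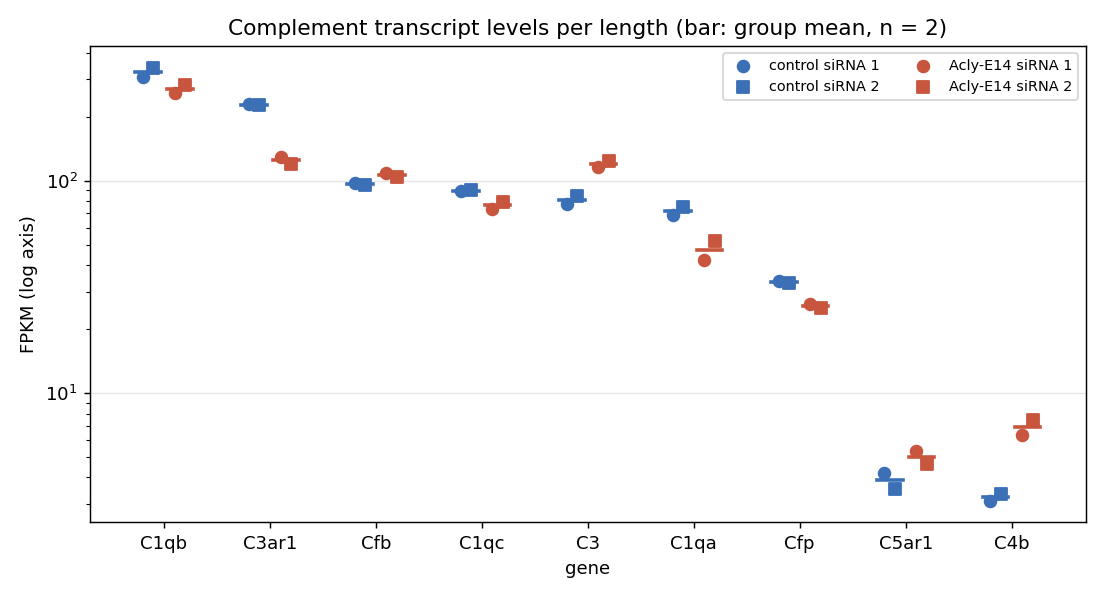
FPKM (log axis), which adjusts for gene length and library total, of the 9 complement genes in each library, ordered by the control mean, with bars at the group means (control siRNA blue, Acly-E14 siRNA red). C1qb stands highest in both groups, and C5ar1 and C4b lie lowest, below 10 FPKM.

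The order of levels per length in controls was C1qb, C3ar1 (228 ± 1.58 FPKM), Cfb (96.0 ± 1.43), C1qc, C3 (81.3 ± 4.66), C1qa, Cfp (33.2 ± 0.504), C5ar1 (3.87 ± 0.485) and C4b (3.23 ± 0.165). No neighbours in this order overlapped, but C3 and C1qa, and C5ar1 and C4b, lay only about the sum of their SDs apart. In Acly-E14 siRNA libraries C1qb was at 271 ± 16.5 FPKM, C3ar1 at 125 ± 6.34, C3 at 120 ± 5.53 and Cfb at 107 ± 3.32. There C3ar1 and C3 overlapped and did not differ beyond their spread. C1qc (76.5 ± 3.99), C1qa (47.3 ± 6.88) and Cfp (25.7 ± 0.762) followed. C4b (6.92 ± 0.801) lay above C5ar1 (4.97 ± 0.499) in these libraries and below it in controls. The implied length of Cfb (4800 bases) and C5ar1 (5021) exceeded the merged exons (2825 and 2570). With merged exons Cfb was at 181 FPKM and C5ar1 at 9.71 in Acly-E14 siRNA libraries, above C3 (132) and C4b (7.65), so these ranks depend on the gene model.

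A further 41 complement genes were listed by role, and 17 had enough counts to be tested. Of these, 6 rose, 1 fell and 10 were not called, with a median log2 change of 0.31, against 0.0027 for all genes tested and 33.2% of them called. C1s1, which encodes the C1s protease of the C1 complex, had 18.1 and 26.2 CPM in controls and 99.2 and 120 CPM in Acly-E14 siRNA libraries. It rose 4.93-fold (log2 2.30, SE 0.186, edgeR adjusted p = 0.0013). C1ra, its partner protease, had a log2 difference of 0.04 and was not called (edgeR adjusted p = 0.778). C2 went from 5.32 and 4.82 to 17.3 and 18.8 CPM, a rise of 3.56-fold (edgeR adjusted p = 0.00089). With the counts of Gm20547 added, the C2 difference was 0.51 on the log2 scale and was not called (edgeR adjusted p = 0.091). C2 also shares 161 exon bases with Zbtb12 on the other strand. Fcna, a lectin pathway recognition gene, had 6.85 to 10.3 CPM and was not called (edgeR adjusted p = 0.136).

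Of the regulators that restrain complement, 2 of 5 fluid-phase and 3 of 6 membrane genes had enough counts to be tested. Called higher were 2 fluid-phase genes and 1 membrane gene, against 17.3% of all genes tested, and 0 were called lower. Serping1, the C1 inhibitor, went from 36.7 and 50.5 to 99.0 and 117 CPM (2.47-fold, log2 1.31, SE 0.161, edgeR adjusted p = 0.0034). Clu (clusterin), which binds terminal complexes, went from 83.5 and 109 to 204 and 221 CPM (2.21-fold, edgeR adjusted p = 0.0026). Within both groups library 2 exceeded library 1 for C1s1, Serping1 and Clu, as for the summed fibroblast and stroma markers. Among the other further complement genes that rose, Cd93 had the reverse order in both groups, and C2 and Cr1l had it in the controls. How many of all genes share such an order was not counted. The part of stroma in these rises was not tested. Cr1l, the membrane regulator Crry, rose 1.24-fold (log2 0.31, SE 0.0818, edgeR adjusted p = 0.033). That call was lost when control library 1 (0.114), the other control (0.123) or Acly-E14 siRNA library 2 (0.169) was omitted, and with no filter on low counts (0.0758). Cd55 (decay-accelerating factor) had a log2 difference of 0.28 and was not called (edgeR adjusted p = 0.31).

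Among the receptors for C3 fragments, Itgb2, the shared beta chain of complement receptors 3 and 4, went from 1442 and 1365 CPM to 535 and 501 CPM. Itgb2 fell by 1.44 (log2), to 0.369 of the control level (SE 0.0633, edgeR adjusted p = 0.00058). Its partner chains were not called: Itgam had a log2 difference of 0.20 (edgeR adjusted p = 0.223) and Itgax of -0.09 (edgeR adjusted p = 0.253). The Itgax difference was 0.0047 with library totals, and Itgam was called higher without Acly-E14 siRNA library 1 (0.0284). Cd93, a surface protein once described as a C1q receptor, rose 1.98-fold from 46.8 and 40.6 to 88.9 and 84.5 CPM (edgeR adjusted p = 0.0016). Calr, a chaperone that can bind C1q, was not called (edgeR adjusted p = 0.357). Vsig4, a macrophage receptor for C3b, was near 3 CPM in controls and was not called (log2 -0.44, edgeR adjusted p = 0.192).

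The terminal pathway was close to absent from the counts. Its 7 genes, Hc (C5), C6, C7, C8a, C8b, C8g and C9, summed to 14 to 19 counts per library, and none was tested. Cfd, the factor D gene, had 0 counts in every library. The lectin pathway genes Mbl1, Mbl2, Masp2, Fcnb, Colec10 and Colec11 had 0 to 4 counts per library.

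**Figure D3:**
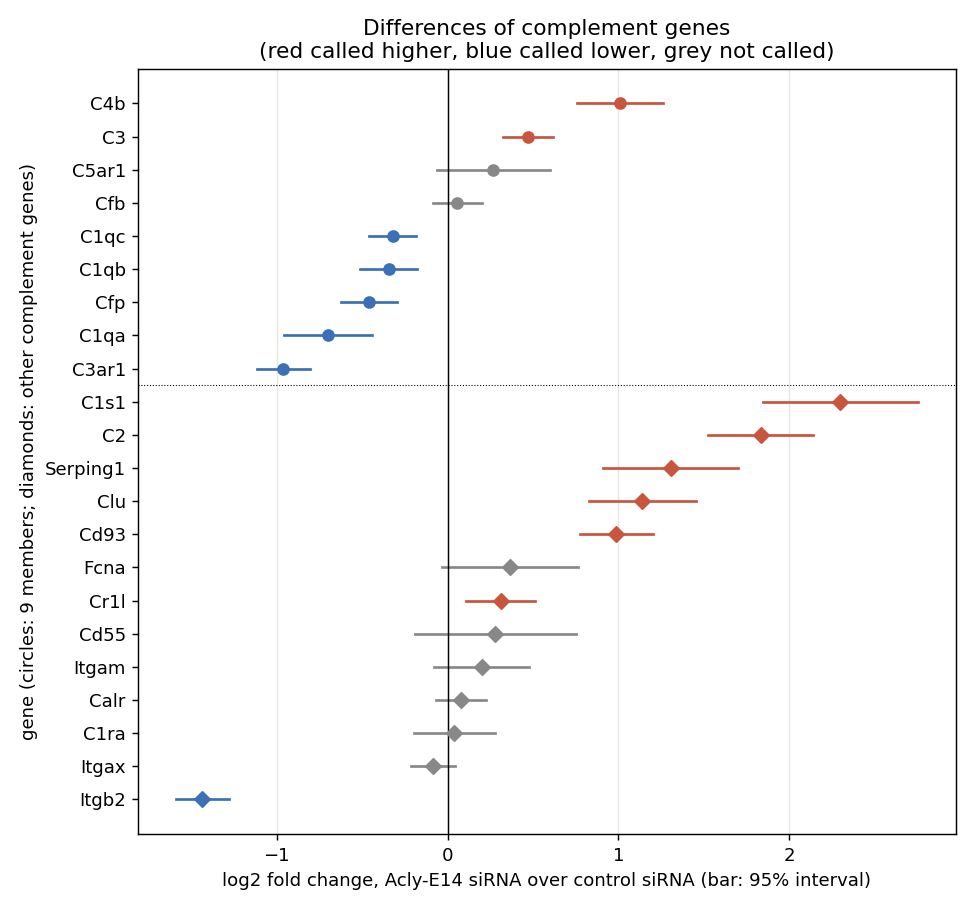
Log2 fold change of Acly-E14 siRNA over control siRNA with its 95% interval for the 9 complement genes (circles) and 13 further complement genes (diamonds), coloured by the call. C3ar1 and Itgb2 lie farthest to the left of their blocks, at -0.96 and -1.44, and C4b and C1s1 farthest to the right, at 1.01 and 2.30.

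Macrophage markers beside the falling genes moved both ways. Of 14 macrophage markers tested, 7 fell, 3 rose and 4 were not called. Among all genes with a mean of at least 10 CPM, 23.7% were called lower and 17.4% higher. The macrophage markers had a median log2 change of -0.25, and Cx3cr1 was at or near 0. The summed level of the macrophage list was 10442 and 9624 CPM in controls and 9360 and 9899 CPM in Acly-E14 siRNA libraries. These sums overlapped, but Lyz2 alone made up 4399 to 4932 CPM of each. In both Acly-E14 siRNA libraries, 9 of the 14 tested markers lay below both controls and 4 lay above both. For all genes tested these shares were 35.3% and 35.3%. The summed level of the 9 complement genes was 2717 and 2720 CPM in controls and 2286 and 2288 CPM in the others. C3ar1 alone went from 1031 and 999 CPM to 543 and 499 CPM, a larger drop than that of the sum. Without C3ar1, the sum was higher in both Acly-E14 siRNA libraries than in either control. Cd68 had 2028 and 1726 CPM against 1187 and 1158 CPM, whereas Cd14 had 806 and 810 CPM against 1573 and 1732 CPM. Neutrophil markers summed to 6.83 to 12.1 CPM and dendritic markers to 6.36 to 10.2 CPM per library. The endothelial list summed to 306 and 293 CPM in controls and 126 and 121 CPM in the others. Kdr was at 277 and 269 against 103 and 97.6 CPM. Cdh5 was at 15.7 and 13.0 against 10.1 and 11.0 CPM and was called lower (edgeR adjusted p = 0.0488). Vwf was at 12.5 and 11.5 against 13.0 and 11.5 CPM and was not called. Pecam1, Tek and Emcn were at or near 0. The part of macrophage content in the falls of C1q, Cfp and C3ar1 was not tested.

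**Figure D4:**
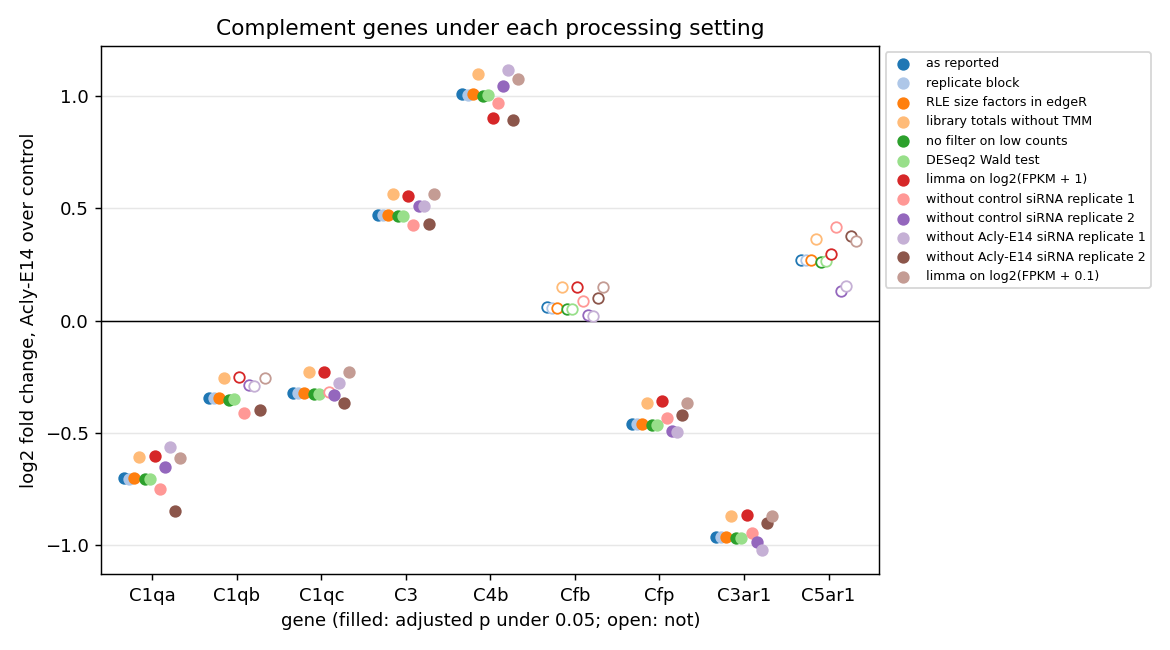
Log2 fold change of each complement gene under the reported analysis and 11 alternatives, filled where the adjusted p was under 0.05. No gene changes sign, C1qb and C1qc are the members with both filled and open points, and Cfb and C5ar1 are open throughout.

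Scaling moved the balance of calls over all genes. With trimmed-mean factors 52.0% of all calls were higher, and with library totals or limma on log2(FPKM + 1) 65.8% were. The complement counts were 2 higher and 5 lower with library totals as well, and 2 higher and 4 lower with limma.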

How the data were processed

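RNA from 4 libraries was sequenced. Per the file headers, the deposited table holds raw counts, which are whole numbers for each Ensembl gene, and FPKM values made by the authors. HISAT2, StringTie 1.3.0, edgeR and mm10 are named in the submitters' processing notes, without roles. The counter, strand setting and gene models were not given in the sources used here. Of the value columns, 1 FPKM column has no replicate number in its name and was not used. FPKM was therefore recomputed from the counts with the gene length implied by the deposited FPKM. It matched 49103 of 49103 deposited values above 0 within a relative tolerance of 0.001. The length of each gene came from its best counted library among those compared, so that library's value matched by construction. Acly-E14 siRNA library 2 was not compared. Symbols matched 34267 of 34745 IDs.

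The test was that of edgeR 4.0.16 (R 4.3.3, filterByExpr with minimum count 10, TMM factors, quasi-likelihood F test, no covariates), after a check on simulated data. SEs are those implied by the F statistic. Replicates differed by more than sampling noise (chi-square per degree of freedom 9.52 and 11.0). Depth was at least 21023197 counts per library. Alternatives used DESeq2 1.42.0, limma 3.58.1, other scalings, no filter, a replicate block and each library left out.

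The members, gene lists and tests were chosen with earlier results of these data known. The genes named are the 9 members, Acly, read-sharing neighbours, and further complement genes that were called or had a mean of at least 10 CPM in a group. The rule also took the 3 best counted markers per cell type. That was followed only for the macrophage, the fibroblast and stroma and the endothelial lists. Of the hepatocyte list only the best counted marker was named under it, and of the neutrophil and dendritic lists none. Vsig4, the untested genes and a few markers were named outside this rule after their values were seen. A further result that meets the rule is not reported here.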

Additional observations from a re-analysis of the deposited data

How the results depend on the processing

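Over the 9 complement genes, 95 of 100 alternative values kept their direction and their side of the threshold, and 5 lost the call, 4 for C1qb and 1 for C1qc. The C1qb adjusted p was 0.0554 with limma on log2(FPKM + 0.1). Over the 13 further complement genes, 134 of 144 values kept both, 5 lost the call (4 for Cr1l and 1 for C2), 1 gained it (Itgam) and 4 changed sign. None of the 4 that changed sign was called. They were C1ra (log2 -0.0795 without Acly-E14 siRNA library 2, against 0.153 without library 1) and Itgax with library totals (0.0047), limma on log2(FPKM + 1) (0.0045) and limma on log2(FPKM + 0.1) (0.0046). The cause was not tested.

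With each library left out in turn, between 2088 and 3215 of all genes were called against 4354 with all 4, and fewer samples entered each fit. Members called lower were 4 to 5 and higher 2 in each of these fits. Further complement genes called higher were 5 to 7 and lower 1. The Acly log2 change was between -0.40 and -0.30, and its adjusted p was 0.0583 without control library 1 (log2 -0.34). In these fits the lone library of a group is assumed to vary like the others.

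Replicate numbers are shared between the groups, but no label says that they mark a common animal or day. The correlation across genes of library 1 minus library 2 between the groups was 0.191, with only 2 pairs. With the replicate block, 2 members were called higher and 5 lower, the same counts as without it, and 6 further complement genes higher and 1 lower. The block gave a log2 change of -0.35 for Acly and called 4896 genes.

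Adding the read-through counts and using merged exon lengths were chosen after seeing the data. Merged exons changed the control ratio of C1qb over C1qc to 3.24, of C1qc over C1qa to 1.39, of C3ar1 over C5ar1 to 30.4, of C3 over Cfb to 0.55 and of Itgax over Itgam to 6.00. The terminal pathway genes and the lectin pathway genes other than Fcna and Masp1 had counts too low to test. Depth and lack of expression were not told apart for these genes.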
